A study of Homo sapiens with 6 samples.

Results

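Histone genes were taken from the table of the series as every symbol that starts with HIST1H, HIST2H, HIST3H, HIST4H, H1F, H2AF or H3F, or with a newer histone name, which added only H2BFM and H2BFWT. The rule found 89 genes of 19977. Of these, 71 carry HIST names and are called clustered here, since most lie in histone gene clusters, although HIST4H4 lies on chromosome 12, apart from the others. The other 18 are called variant genes, by name and not by position. The cells were U2OS, a human osteosarcoma line, untreated apart from transfection, and RNA was taken 48 hours after it. There were 3 libraries from cells given a non-targeting control siRNA (siCtrl) and 3 from cells given an siRNA against NUDT5 (siNUDT5), a hydrolase of ADP-ribose. Nothing in the labels ties the libraries of a group to separate cultures. Each p-value here therefore reflects library-to-library spread that may be only technical. U2OS is a single tumour line, and the labels name 1 target gene without saying how many siRNA sequences were used.

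Histones package DNA into nucleosomes, each a core of H2A, H2B, H3 and H4 with linker histone H1 bound outside it. The clustered genes are transcribed mainly in S phase, and most of their mRNA ends in a conserved stem-loop rather than a poly(A) tail. The stem-loop binding protein SLBP holds that end, and the U7 small nuclear ribonucleoprotein directs the cut beside it. Variant genes such as H2AFZ, H3F3B and H1F0 make ordinary polyadenylated mRNA throughout the cell cycle, and their proteins can replace the S-phase forms. The library kit captures polyadenylated RNA, so a clustered gene is read here through whatever polyadenylated message it makes.

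The stem-loop was looked for in the first 100 bases after the stop codon of GENCODE 29 transcripts (GRCh38), on the sense strand, as a 16-base motif of 2 arms of 6 bases and a loop of 4. It was found in 32 of the 53 histone genes with at least 20 bases annotated there and in 0 of 18988 other coding genes, and 31 of those 32 were clustered. The exception was H2AFX. The sites below are those of the clustered genes that passed the test further on and had an annotated stem-loop, with HIST1H2AC, the most abundant clustered gene that had one, and H2AFX. Capitals mark the stem-loop.
HIST1H2BC: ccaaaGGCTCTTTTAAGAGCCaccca
HIST1H2AC: ccaaaGGCTCTTTTCAGAGCCcccct
HIST1H3H: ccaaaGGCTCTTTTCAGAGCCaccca
HIST1H4H: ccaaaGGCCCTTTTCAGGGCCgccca
HIST2H4B: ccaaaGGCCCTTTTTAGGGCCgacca
H2AFX: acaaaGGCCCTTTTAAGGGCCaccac

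In GRCh38 these windows lie at chr6:26123467-26123492 (minus strand), chr6:26124664-26124689 (plus), chr6:27810511-27810536 (plus), chr6:26285126-26285151 (minus), chr1:149860764-149860789 (minus) and chr11:119094893-119094918 (minus), in the order printed, all in annotated 3' UTRs. The arms differed between families, with exceptions. Of the 32 stem-loops, 17 read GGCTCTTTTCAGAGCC and 5 read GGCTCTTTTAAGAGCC, all in H2A, H2B and H3 genes. The H4 genes read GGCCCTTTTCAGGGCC in 5 cases and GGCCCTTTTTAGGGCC in 3. H2AFX, an H2A gene, had the arms of the H4 genes (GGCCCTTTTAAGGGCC). The 1 core that mixed both arms, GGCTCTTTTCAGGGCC, was that of HIST1H2AG. A poly(A) signal, AATAAA, followed the stem-loop in 17 clustered genes, with a median level of 0.475 TPM over all 6 libraries, and was not found after it in 14, with a median of 2.89 TPM. TPM is a transcript abundance scaled for length and library total. By these medians genes with AATAAA were lower, although HIST1H2AC, the highest gene with an annotated stem-loop among the clustered ones, has it. The search stopped at the annotated end. In genes without AATAAA that end lay 6 (HIST1H4J) to 1059 bases (HIST1H2BG) after the stem-loop. In genes with it the end lay 35 (HIST2H2AA3) to 1917 bases (HIST3H2BB) after. A signal beyond a short annotation would be missed, so this split also depends on annotated length, whose part was not tested. Another 35 clustered genes have under 20 bases annotated after the stop codon, among them HIST1H2BK and HIST1H1C.

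The target was lowered in every siNUDT5 library. NUDT5 had 46.2, 49.0 and 52.0 TPM in the siCtrl libraries, in order of replicate number, and 3.04, 2.74 and 2.67 TPM in the siNUDT5 libraries. Values below follow that order. Relative depth, read from the whole-read steps of low values, ran from 64.1% to 118% of siCtrl 1, with siCtrl 2 the shallowest. That library also stood apart, at a median difference of 0.296 and 0.227 on the log2(TPM + 1) scale from siCtrl 1 and 3, where the remaining 4 pairs of libraries from 1 group lay 0.0967 to 0.134 apart. Of 8 mesenchymal and osteoblast markers 6 averaged 1 TPM or more, and 1 of these, ALPL, rose, while COL1A2 and TWIST1 stayed at or under 0.393 TPM in each library. Of 9 markers of other cell types, 8 averaged under 1 TPM. The exception was EPCAM, at 5.10 to 12.8 TPM, which fell (log2 change -0.74, limma adjusted p = 0.0271) and whose part in the histone results was not tested.

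A few genes made up most of the histone signal, and most of them were variants. The variants summed to 5461, 5238 and 5406 TPM in the siCtrl libraries, against 2139, 1961 and 2161 TPM for the 71 clustered genes. Of the variants, 11 averaged 1 TPM or more, 1 lay between 0 and 1 TPM and 6 were listed at 0 throughout. Of the clustered genes, 37 reached 1 TPM, 13 lay between 0 and 1 TPM and 21 were listed at 0 throughout. HIST1H2BK, an H2B gene, and HIST1H1C, which encodes linker histone H1.2, together held 78.2 ± 2.28% of the clustered sum in siCtrl cells (SD, n = 3) and 77.6 ± 0.372% of it in siNUDT5 cells (SD, n = 3). Next came HIST1H2AC, HIST1H2BD and HIST1H2BJ, and HIST1H3C, HIST1H1B and HIST1H1D were listed at 0 in all 6 libraries.

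**Figure D1:**
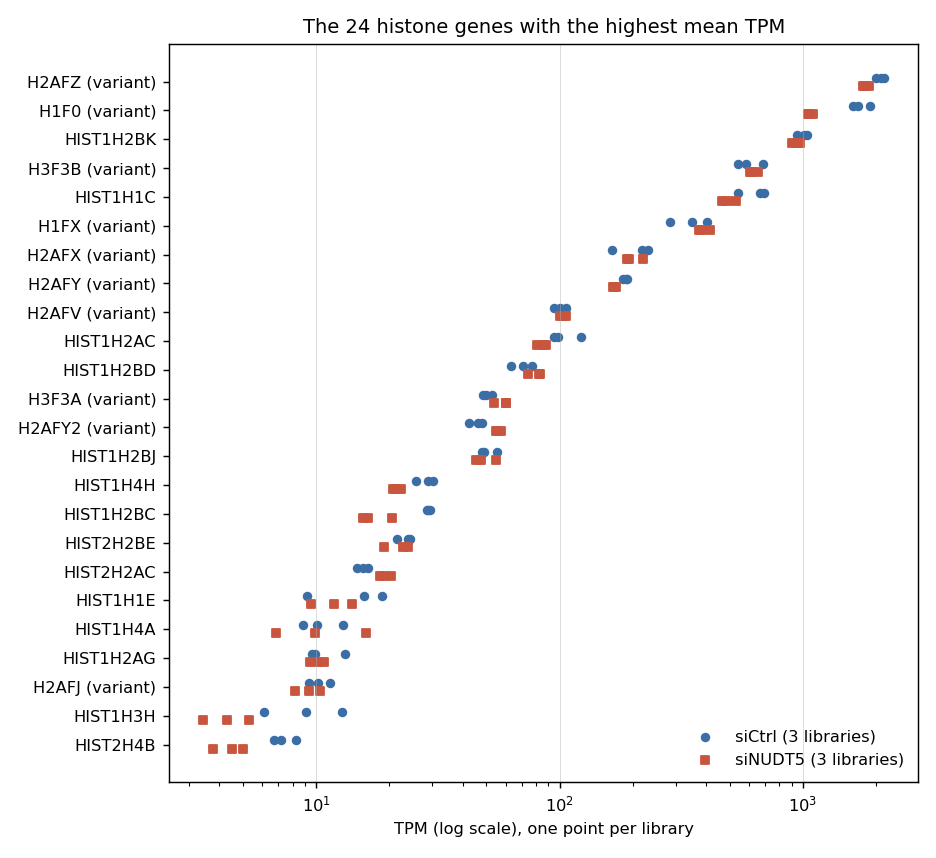
TPM on a log axis for the 24 histone genes with the highest mean, one point per library (circles, siCtrl; squares, siNUDT5; n = 3 each). The means run from H2AFZ at 1949 TPM over all libraries to HIST2H4B at 5.90 TPM, and the groups of H1F0 and HIST1H2BC lie clearly apart.

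Many of the clustered genes rested on few reads. Of 44 members above 0 and under 15 TPM, 32 had values in whole-read steps, with 1 read worth between 0.0857 and 1.03 TPM in siCtrl 1. The fewest reads that give the values of the 23 tested members among them had a median of 6 per library. HIST1H2AI, an H2A gene, came to 9, 1 and 16 reads in siCtrl and 5, 17 and 4 in siNUDT5. HIST1H2AJ came to 6, 1 and 5 reads against 0, 4 and 11. Of the 50-base words in HIST1H2AJ transcripts 83.7% also occur in HIST1H2AI, so the division of reads between these genes is uncertain. Both genes overlapped between groups, with 95% intervals of the log2 change from -1.17 to 1.27 and from -1.45 to 1.17.

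With NUDT5 lowered, 8 of 48 tested histone genes passed the test, and H1F0, which fell, had the smallest adjusted p among them. Tests used limma on log2(TPM + 1) for all 12236 genes that averaged 1 TPM or more, siNUDT5 minus siCtrl, two-sided, with 0.05 as the threshold on the Benjamini-Hochberg adjusted p. Of all tested genes 16.1% passed, 10.9% higher and 5.2% lower. Among the 37 clustered genes 5 fell and 1 rose (16.2%), and among the 11 variants 1 fell and 1 rose (18.2%). Both shares were near that of all genes. The median log2 change was -0.07 for the clustered genes, 0.05 for the variants and 0.05 for all genes. Without siCtrl 2 the counts were 7 falls and 3 rises among clustered genes and 2 of each among variants. Over all 12236 tested genes that setting gave 1137 falls and 2665 rises, against 636 and 1334 with all libraries. Passes without siCtrl 2 given below come from that setting. Without siCtrl 3 or siNUDT5 2 or 3, 1 clustered gene and 1 variant passed, and without siNUDT5 1, 2 and 1. Without siCtrl 1, 5 clustered genes fell and 1 rose, and 1 variant fell. Of all tested genes 858 passed without siCtrl 3, 775 without siNUDT5 2 and 766 without siNUDT5 3. The count was 840 without siNUDT5 1 and 2074 without siCtrl 1, against 1970 with all libraries. Counted instead by groups whose 3 values do not overlap, 10 members were lower and 5 higher of 48 tested, where 37.3% of all tested genes did not overlap. Of all tested genes 12.9% were lower and 24.3% higher by this count.

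**Figure D2:**
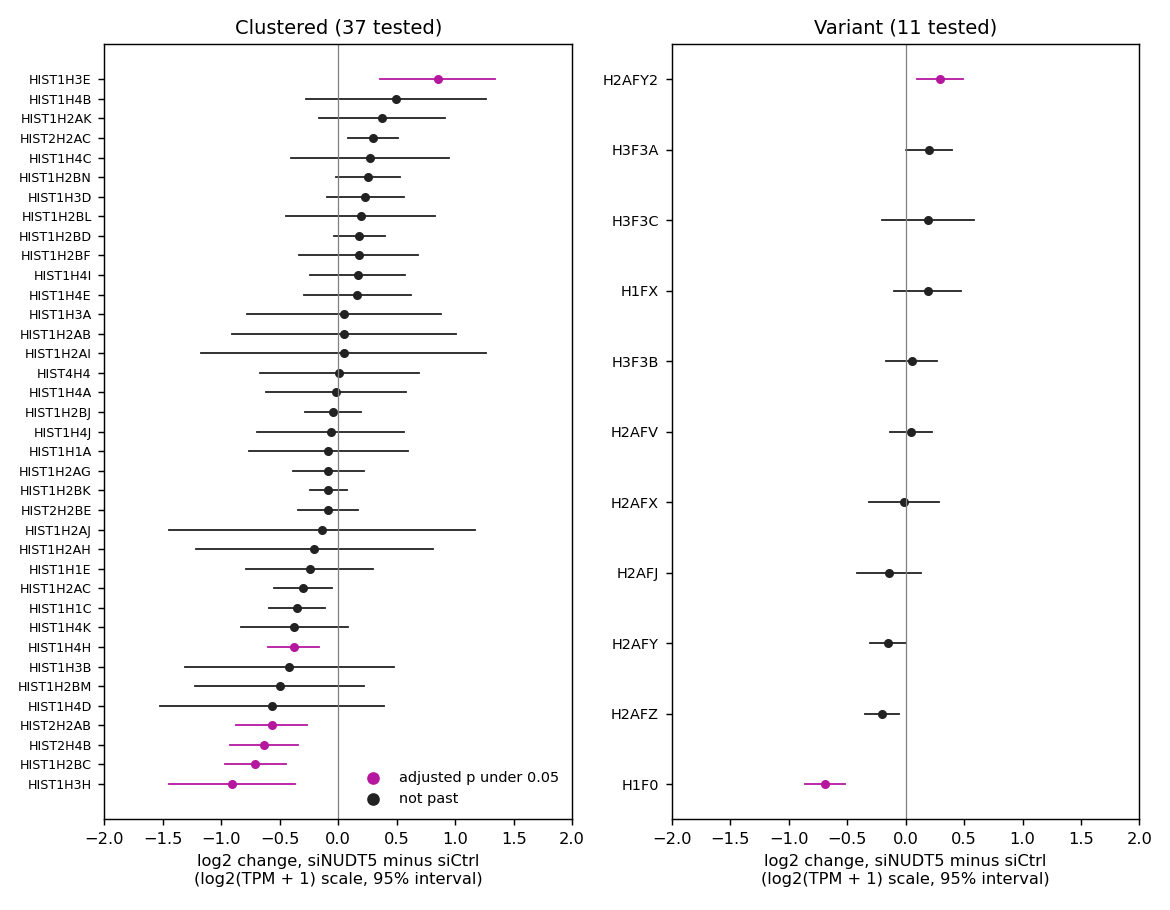
Log2 change (siNUDT5 minus siCtrl, log2(TPM + 1) scale) with its 95% interval for the 37 clustered and 11 variant genes tested, from 3 libraries a group. Coloured points passed an adjusted p of 0.05, and most intervals include 0.

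H1F0 encodes H1.0, a linker histone whose production is not tied to S phase and which is linked to slow growth and differentiation. Its siCtrl levels were 1894, 1608 and 1691 TPM, and its siNUDT5 levels were 1099, 1053 and 1064 TPM. All siNUDT5 values were below all siCtrl values. The means were 1731 ± 147 and 1072 ± 23.9 TPM (SD, n = 3 each), so 61.9% of the control level was left. The log2 change was -0.69 (standard error 0.0759, limma adjusted p = 0.00141), and it stayed past the threshold under all 14 alternatives, at adjusted p of 8.57e-06 to 0.0169.

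The other linker histone genes did not pass. HIST1H1C had 694, 539 and 669 TPM in siCtrl and 465, 529 and 487 TPM in siNUDT5. The groups did not overlap, though siCtrl 2 came close to siNUDT5 2, and the log2 change was -0.35 with limma adjusted p = 0.0550. Without siCtrl 2 it was -0.47 with adjusted p = 0.000347, and with quantile normalization it passed as well (-0.33, 0.0476). H1FX, the replication-independent H1.10 gene, had 403, 283 and 349 TPM against 375, 415 and 380 TPM, with overlapping groups and a 95% interval of -0.10 to 0.47. HIST1H1E, which encodes H1.4, had a mean of 14.5 ± 4.84 against 11.8 ± 2.23 TPM (SD, n = 3 each) and overlapped as well.

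Summed over the 10 H1 genes of both classes, the level was 3016, 2448 and 2721 TPM in siCtrl and 1953, 2013 and 1942.5 TPM in siNUDT5. The siNUDT5 mean was 72.2% of the siCtrl mean. H1F0 made up 63.5 ± 1.89% of this sum in siCtrl and 54.4 ± 1.99% in siNUDT5, while the share of H1FX was 12.6 ± 0.926% against 19.8 ± 0.730% (SD, n = 3 each). Neither share overlapped between the groups. No test was made of these sums, since their members were chosen with results known.

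**Figure D3:**
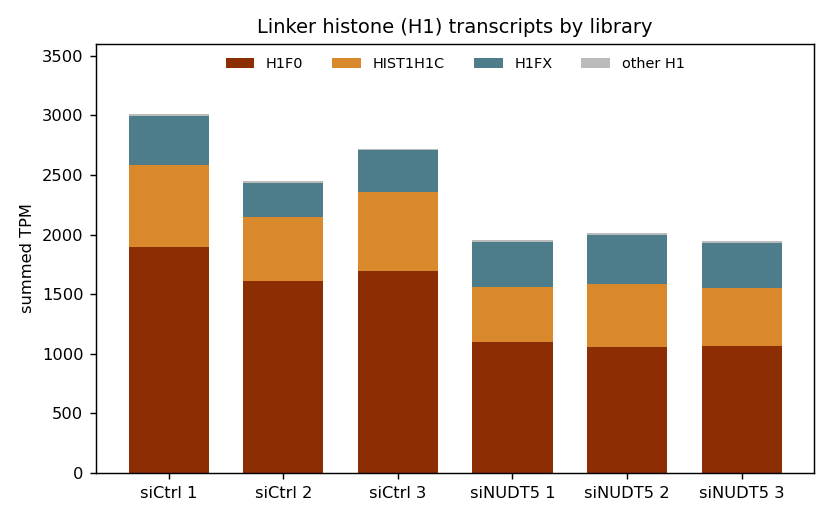
Summed TPM of the 10 linker histone genes in each library, divided into H1F0, HIST1H1C, H1FX and the rest. The siNUDT5 bars lie between 1942.5 and 2013 TPM, below the 2448 to 3016 TPM of siCtrl, with a smaller H1F0 part.

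H2AFZ, which encodes the variant H2A.Z found at promoters, had the highest mean TPM of the histone genes in these libraries. Levels of 1999.5, 2098 and 2162 TPM in siCtrl stood against 1769.8, 1873 and 1794 TPM in siNUDT5. The groups did not overlap, but the log2 change of -0.20 missed the threshold (limma adjusted p = 0.0607). It passed with median-ratio scaling (-0.26, 0.0458). Without siCtrl 2 it passed too (-0.20, 0.0336), in a setting where 3802 of all tested genes passed against 1970 with all libraries. H2AFV, the second H2A.Z gene, had means of 100.2 ± 5.63 and 103.4 ± 2.95 TPM (SD, n = 3 each), with a 95% interval of the log2 change from -0.13 to 0.23. Its direction turned with median-ratio scaling and with quantile normalization.

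The macroH2A genes, whose products carry a large extra domain and mark silent chromatin, had log2 changes of opposite sign, of which 1 passed. H2AFY2, which encodes macroH2A2, rose from 46.2, 42.4 and 48.0 TPM in siCtrl to 55.5, 57.6 and 54.9 TPM in siNUDT5. The groups did not overlap, and the log2 change was 0.29 with limma adjusted p = 0.0486. It held under 4 of 14 alternatives and was lost with either scaling, at 0.24 and adjusted p = 0.103 with median ratios. H2AFY, which encodes macroH2A1, had 187, 183 and 189 TPM in siCtrl and 167.4, 170.2 and 166 TPM in siNUDT5. Those groups did not overlap either, but the log2 change of -0.15 did not pass (limma adjusted p = 0.175). The difference between the macroH2A genes was not tested.

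H2AFX, whose product is phosphorylated at DNA breaks, had 231, 164 and 219 TPM in siCtrl and 189, 220.2 and 194 TPM in siNUDT5. The groups overlapped, and the interval of the log2 change ran from -0.31 to 0.29. H2AFJ, an H2A variant gene with a mean of 9.80 TPM, overlapped too. The H3.3 genes make the H3 laid down outside S phase. H3F3B had 539.9, 687 and 585 TPM in siCtrl and 653, 604 and 615 TPM in siNUDT5, with an interval from -0.16 to 0.27. H3F3A had 49.9, 52.6 and 48.6 TPM against 60.4, 60.1 and 53.9 TPM, groups that did not overlap, with a log2 change of 0.20 and limma adjusted p = 0.153. It passed without siCtrl 2 (0.23, 0.0415). H3F3B held 88.7 ± 1.01% of the summed H3 TPM in the siCtrl libraries and 88.6 ± 0.607% of it in the siNUDT5 libraries (SD, n = 3 each). These are shares of polyadenylated message only, and 9 of the 15 clustered H3 genes were listed at 0 throughout. The share of H3F3B in all H3 mRNA of the cells cannot be read from them. CENPA, the centromeric H3, is outside the rule and went from 148 ± 10.8 to 141 ± 7.93 TPM (SD, n = 3 each), which did not pass (limma adjusted p = 0.617).

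Among the clustered genes HIST1H2BC, an H2B gene, had the clearest fall. Its siCtrl levels were 28.7, 29.3 and 28.6 TPM, and its siNUDT5 levels were 16.3, 20.4 and 15.5 TPM. Every siNUDT5 value lay below every siCtrl value, and the log2 change was -0.71 (standard error 0.115, limma adjusted p = 0.00573). Like H1F0 it passed under all 14 alternatives, with adjusted p of 0.000535 to 0.0376. The other 8 tested H2B genes of the clusters did not pass. HIST1H2BK, the most abundant, had 1014, 943 and 1043 TPM against 899, 974.5 and 949.6 TPM, with an interval from -0.25 to 0.07. HIST1H2BD had 63.5, 76.8 and 70.9 TPM against 74.2, 82.4 and 82.9 TPM, with a log2 change of 0.18 that did not pass (limma adjusted p = 0.244). Without siCtrl 2 it passed (0.25, 0.0373), and without siCtrl 1 it was 0.11. HIST1H2BJ and HIST2H2BE overlapped between groups.

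HIST1H2BC shares its promoter with HIST1H2AC. The 2 genes start 219 bases apart and run away from each other, 1 of 12 such head-to-head pairs among the members. H2B promoters are known for an octamer, ATTTGCAT, bound by POU factors. It was found on either strand of the 300-base RefSeq promoter (GRCh38.p14, 250 bases before the start to 50 after) in 14 of 18 clustered H2B genes and in 1.8% of all 27305 promoters. It was found in 12 of 48 other clustered genes, which include the partners of H2B genes, and in 1 of 16 variants, H3F3B. Promoters were matched for 82 of the 89 members. CCAAT, by the same search, was in 84.8% of the clustered and 81.2% of the variant promoters against 35.7% of all, and TATAAA in 66.7% and 25% against 12%. The window around the octamer is shown for both genes of this pair, which hold the same bases read from opposite strands, then for HIST1H2BK and the pair HIST2H2BE and HIST2H2AC. Capitals mark the octamer.
HIST1H2BC: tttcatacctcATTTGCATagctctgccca
HIST1H2AC: tgggcagagctATGCAAATgaggtatgaaa
HIST1H2BK: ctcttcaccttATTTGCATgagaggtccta
HIST2H2BE: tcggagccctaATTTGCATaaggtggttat
HIST2H2AC: ataaccaccttATGCAAATtagggctccga

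The first 2 windows are chr6:26124031-26124060, the third is chr6:27146886-27146915 and the last 2 are chr1:149886710-149886739, all upstream of the start site. HIST1H2AC had 95.01, 123 and 98.3 TPM in siCtrl and 88.2, 85.8 and 80.75 TPM in siNUDT5. The groups did not overlap, but the log2 change of -0.30 did not pass (limma adjusted p = 0.101). It passed with median-ratio scaling (-0.35, 0.0409) and with quantile normalization (-0.36, 0.0304). In the other pair, HIST2H2AC had a log2 change of 0.29 (limma adjusted p = 0.0680) and HIST2H2BE one of -0.09 (0.641). HIST1H2BK and its partner HIST1H2AH had -0.09 and -0.20, and HIST1H2BJ and HIST1H2AG -0.05 and -0.09, none past the threshold. The octamer was thus found in the promoters of HIST1H2BC, which fell, and of HIST1H2BK and HIST2H2BE, which did not pass.

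Another 5 clustered genes passed, 4 of them with means under 10 TPM. HIST1H4H, an H4 gene with a mean of 24.8 TPM, fell from 25.7, 30.2 and 28.9 TPM to 21.3, 22.2 and 20.75 TPM, without overlap (log2 change -0.38, limma adjusted p = 0.0300). It passed in 9 of 14 alternatives. HIST2H4B, also an H4 gene, fell from 6.74, 8.28 and 7.15 TPM to 5.00, 4.50 and 3.76 TPM (-0.63, limma adjusted p = 0.0138, 11 of 14). All 50-base words of HIST2H4A occur in HIST2H4B, so the division of reads between these copies is uncertain. HIST1H3H, an H3 gene, fell from 6.12, 12.7 and 9.12 TPM to 3.42, 4.32 and 5.32 TPM (-0.91, limma adjusted p = 0.0332, 9 of 14). These values correspond to at least 12, 16 and 20 reads against 6, 10 and 11.

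HIST2H2AB, an H2A gene, fell from 3.92, 5.25 and 5.01 TPM to 2.51, 2.85 and 3.19 TPM (log2 change -0.57, limma adjusted p = 0.0240, 8 of 13 alternatives). It rested on at least 7, 6 and 10 reads against 4, 6 and 6. HIST1H3E, an H3 gene with no stem-loop in the first 100 bases after its stop codon, was the clustered gene that rose, from 0.531, 0.829 and 0 TPM to 1.78, 1.35 and 1.51 TPM (0.85, limma adjusted p = 0.0309, 8 of 13). That is at least 1, 1 and 0 reads against 3 in each siNUDT5 library. Its mean over all libraries, 1.0005 TPM, just met the filter and did so through the siNUDT5 group, so its call supports nothing about the class. HIST1H2AM, at 0.9995 TPM, was just outside. HIST1H2BG, which was not tested, came to 1, 1 and 3 reads in siCtrl and was listed at 0 in siNUDT5.

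**Figure D4:**
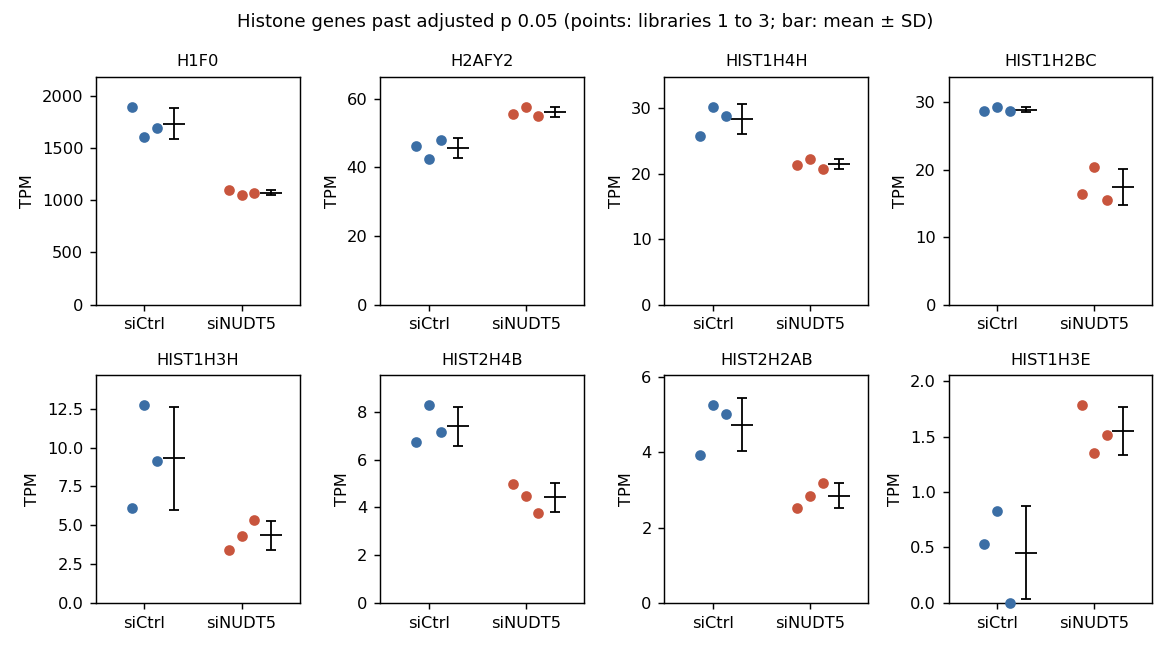
TPM in each library for the 8 histone genes past an adjusted p of 0.05, on linear axes from 0, with the mean ± SD of 3 libraries beside the points. In each panel the siCtrl and siNUDT5 values do not overlap, and the axis of HIST1H3E ends near 2 TPM while that of H1F0 ends above 2000 TPM.

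By family, the 11 tested clustered H4 genes had 2 falls and no rise, the 5 H3 genes 1 fall and 1 rise, the 9 H2B and 9 H2A genes 1 fall each, and the 3 H1 genes no call. The remaining 31 clustered genes did not pass, with log2 changes from -0.57 (HIST1H4D) to 0.49 (HIST1H4B). The clustered sum was 1767, 1929 and 1846 TPM in siNUDT5, which on average is 88.5% of the siCtrl sum, and the variant sum was 4489, 4572 and 4435 TPM, which is 83.8%. The variant groups did not overlap, and neither did those of the clustered genes, where siCtrl 2 (1961 TPM) came nearest to siNUDT5 2. Without H1F0 the other 17 variants stood at 94.2% of the siCtrl mean. Without HIST1H2BK and HIST1H1C the other 69 clustered genes stood at 91.1% of theirs. Their sum differed by -40.2 TPM between groups, against -240 TPM for all 71 clustered genes. For the clustered genes, fewer cells in S phase and less histone RNA per cell cannot be told apart in bulk RNA. Only polyadenylated message is read here, so a change in the polyadenylated share of these genes cannot be told apart from them either.

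Genes that make and end histone mRNA were looked at beside them. SLBP, which binds the stem-loop, fell from 75.0, 79.6 and 75.3 TPM to 61.0, 62.0 and 58.7 TPM, without overlap (log2 change -0.33, limma adjusted p = 0.0223). ZNF473, the zinc finger protein of the U7 complex, fell from 24.4, 27.7 and 24.5 TPM to 18.6, 17.6 and 15.04 TPM (-0.56, limma adjusted p = 0.0126). CCNE1, a cyclin that with CDK2 activates the histone gene coactivator NPAT, rose from 102, 113 and 111 TPM to 189, 186 and 174 TPM (0.75, limma adjusted p = 0.00120). NPAT itself had 18.7, 29.8 and 20.9 TPM against 20.8, 17.2 and 17.95 TPM, and did not pass (-0.27, 0.304). These were the 3 of 33 tested genes of the list past the threshold (9.09%, against 16.1% of all genes). CCNE1 passed in all 14 alternatives, ZNF473 in 11 and SLBP in 9.

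Of 32 histone chaperones 1 passed (3.12%, against 16.1% of all genes). NAP1L1, an H2A and H2B chaperone, fell, with means of 338 ± 51.7 TPM in siCtrl and 229 ± 13.3 TPM in siNUDT5 (SD, n = 3 each). Its log2 change was -0.55 (limma adjusted p = 0.0139, 12 of 14 alternatives). Of 23 factors that exchange variants 2 passed (8.7%, also under the 16.1% of all genes). ANP32E, which removes H2A.Z from nucleosomes, fell from 199, 292 and 209.8 TPM to 120.3, 105 and 112 TPM, without overlap (-1.03, limma adjusted p = 0.00303, all 14 alternatives). OIP5, which helps load CENPA, rose from 44.9 ± 1.90 to 63.3 ± 0.873 TPM (0.49, limma adjusted p = 0.00585).

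Of 40 S-phase genes 4 fell (WDR76, SLBP, UNG and TYMS) and 1, PCNA, rose (12.5% past the threshold, against 16.1% of all genes), with a median log2 change of -0.13 against 0.05 for all genes. WDR76 changed by -1.14, UNG by -0.31, TYMS by -0.29 and PCNA by 0.38 on the log2 scale. WDR76 passed in all 14 alternatives, UNG and TYMS in 8 and PCNA in 6. The groups of 12 S-phase genes did not overlap with siNUDT5 lower, and those of 1 with siNUDT5 higher. By that count 12.9% of all tested genes were lower and 24.3% higher. Of 50 G2 and mitotic genes 2 rose, HMMR (1.01) and CBX5 (0.39), and 2 fell, ANP32E and HMGB2 (-0.34), with a median of -0.03. That is 8% past the threshold, against 16.1% of all genes. HMMR passed in 13 alternatives, and CBX5 and HMGB2 in 9. Over the lists together 5 genes rose and 8 fell of 170 tested, where 10.9% of all tested genes rose and 5.2% fell. With median-ratio scaling 5 rose and 17 fell, with quantile normalization 5 and 16, and without siCtrl 2, 17 and 16. The counts over all 12236 tested genes moved as well. In the same order 1041 rose and 895 fell, 1018 and 965, and 2665 and 1137, against 1334 and 636 in the main fit.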

How the data were processed

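The authors deposited TPM per gene symbol for 6 libraries, each summing to 1000000, in which 3074 symbols are listed at 0 throughout. The build hg19 and the tools DESeq2 1.22.1 and STAR 2.7.3a are named, with no role, per the submitters' processing notes. Not given in the sources used here are the annotation, the use of strand and the treatment of reads shared by gene copies. TPM are not counts, so tests used limma 3.58.1 in R 4.3.3 (lmFit, eBayes with a trend) on log2(TPM + 1), a scale that understates changes of low genes. With values simulated for this comparison over 12236 genes, the test recovered 40% of log2 changes of 0.5 and 100% of those of 1, with 8 false calls. The changed genes were drawn from all genes, with independent normal noise and no deviation shared across a library, such as that of siCtrl 2. These shares therefore do not hold for histone genes with wide errors, such as HIST1H2AJ (standard error 0.572). Relative depth was the commonest ratio between libraries among genes under 0.3 TPM. A member's whole reads are the fewest, up to 40 in a library, that give its values within 0.02 of a read after division by that depth. Sequences came from GENCODE 29 and RefSeq, matched by symbol and through GENCODE's gene identifiers.

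Members and lists were chosen with earlier results of these data known. Named genes are every member past the threshold, the 8 most abundant of each class, 7 set variants, CENPA, and list genes past the threshold with SLBP and NPAT. Other members named (such as HIST1H1E, H2AFJ, HIST2H2AC, HIST1H2AI and HIST1H2BG) were chosen after their values were seen. Lists matched 33 of 35 (histone mRNA), 32 of 32, 23 of 23, 40 of 42 and 50 of 50 symbols, and 0 of 25 for RNAs without a poly(A) tail. Alternatives changed 1 choice at a time: the pseudocount (0.1 or 5), the filter (none, or 5 TPM), the scaling (median ratios, or quantile normalization), the trend (none), a replicate block, and each library left out. Figures were drawn with matplotlib 3.10.9 in Python 3.11.15.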

Additional observations from a re-analysis of the deposited data

How the results depend on the processing

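H1F0 and HIST1H2BC fell under every alternative run. Over all genes 1970 passed, 739 with the replicate block and 766 to 3802 with 1 library left out (3802 without siCtrl 2). Clustered genes past the threshold went from 6 to between 1 and 10 with 1 library left out, and variants from 2 to between 1 and 4. Variants were 1 with no filter, quantile normalization, no trend or the replicate block. Genes of the 5 lists went from 13 to between 5 and 33 with 1 library left out, to 22 with median-ratio scaling, 21 with quantile normalization and 5 with the replicate block. The cause was not tested. The variant sum differed by -870 TPM between groups and by -1058 TPM with median-ratio scaling. That scaling gave 1041 genes higher and 895 lower, and quantile normalization 1018 and 965, against 1334 and 636.

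Directions turned in genes whose intervals include 0. H3F3B was -0.0009 with median-ratio scaling and -0.0229 to 0.1505 with 1 library left out. H2AFV was -0.0085 with median-ratio scaling and -0.0104 with quantile normalization. With 1 library left out H2AFX ranged from -0.1621 to 0.0805, HIST1H2BJ from -0.1269 to 0.0156 and HIST2H2BE from -0.1515 to 0.0053. With the replicate block 11 named genes lost their call. Deviations of same-numbered libraries from their group means had correlations of -0.426, -0.538 and -0.0449 over genes. With 3 libraries a group these deviations constrain each other, so they cannot show whether the labels' numbers pair the libraries.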

Other observations

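The 3' UTR of H1F0 holds the 8-base word AAGACTTA once and its first 7 bases, AAGACTT, once more. These words were singled out on the log2 changes of these same libraries, so what follows is a description and no separate evidence. Of 11449 tested genes with at least 50 bases of annotated 3' UTR, 435 (3.8%) held AAGACTTA. Of these 75 fell and 27 rose, with a median log2 change of -0.08, while among the 11014 others 518 fell and 1244 rose, with a median of 0.05. Another word searched for, GATTAAC, was held by 709 genes (6.19%), with a median of 0.14 against 0.04 in genes without it. The tested members that held GATTAAC, HIST1H2AC, HIST1H2BN and HIST1H4I, did not pass. The windows are printed 5' to 3' from GENCODE 29 (GRCh38) for members that hold AAGACTTA or AAGACTT, and for ANP32E and CBX5, list genes that fell and rose, with the word in capitals.
H1F0 first: tgtcctaggAAGACTTttcttttcc
H1F0 second: gtggatagtAAGACTTActgcagtcg
HIST2H4B: acagccgtaAAGACTTAagtcgttga
H2AFV: tcctaagtgAAGACTTAgtaagtctg
H2AFX: accttctggAAGACTTggccttccg
ANP32E: ataacttttAAGACTTAtttagcttt
CBX5: actttgctaAAGACTTgaggggtgg

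The windows lie at chr22:37806962-37806986 and chr22:37807130-37807155 (plus strand), chr1:149860608-149860633, chr7:44829812-44829837, chr11:119094515-119094539, chr1:150218748-150218773 and chr12:54237754-54237778 (minus strand). H1F0, HIST2H4B and ANP32E fell, whereas H2AFV, with the 8-base word, had a log2 change of 0.05 and did not pass. H2AFX, with the 7-base word, had -0.01 and did not pass either, and CBX5, with 3 sites of AAGACTT or AGACTTA, rose by 0.39. HIST1H2BC, HIST1H3H and HIST1H4H fell and held neither AAGACTT nor AGACTTA in their annotated 3' UTRs.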
